A study of Mus musculus with 8 samples.

Results

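Stefin A proteins are small, mostly cytoplasmic inhibitors of papain-like cysteine proteases, the enzyme class that holds cathepsins B, H, L and S. Where humans have a single stefin A gene, the mouse has a cluster of closely related copies on chromosome 16, and these copies are known for their transcripts in neutrophils and in stratified epithelium. The 5 genes described here are Stfa1, Stfa2, Stfa3, Stfa2l1 and Csta3. They were chosen by the gene names printed with the array probes, out of 29608 gene names, and with their ratios of PACAP over vehicle already known. Those ratios are therefore a description, and no test was made on them. The 5 genes had 6 probes among 39429, because Stfa1 had a pair of probes and each of the others had 1.

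PACAP is a neuropeptide that acts on the receptor PAC1R, which Adcyap1r1 encodes, and on receptors that it shares with VIP. Palm skin was taken from wild-type (WT) and Adcyap1r1 -/- (PAC1R KO) mice, all labelled C57BL/6J, all 9 to 10 weeks old, all anaesthetized and all injected intradermally in the footpad of the paw. Each injection was 5 µL of saline with 0.1% BSA (vehicle), alone or with 1e-07 mol/L of PACAP, and skin was taken after 30 or 60 min. Each genotype at each time gave 1 PACAP RNA sample and 1 vehicle RNA sample, hybridised together on 2 arrays with the dyes swapped, so that 8 arrays held 8 RNA samples in 4 comparisons. The 2 arrays of a comparison were technical repeats of the same RNA, so each comparison had 1 replicate, and how the 6 mice stated for each genotype were divided among the RNA samples is not given in the sources used here. All 4 arrays of a genotype were on 1 slide, and a difference between genotypes cannot be told apart from one between slides.

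Over 20284 probes, the log ratios of the dye-swapped arrays correlated at r = 0.401 and 0.362 for WT and 0.647 and 0.190 for KO, at 30 and 60 min, as a description of repeatability across probes. The red dye put 78.6% to 94.5% of spots well above background and the green dye 54.0% to 65.3%. The single Adcyap1r1 probe, whose place relative to the deleted part is not given in the sources used here, was lower in the samples labelled KO in 4 of 4 pairs, by 0.11 to 0.36 on the log2 scale. In the vehicle samples its difference was -0.21 (SE 0.27; limma adjusted p = 0.96). With time as a covariate, added after the values were seen, its SE was 0.07 (limma adjusted p = 0.371). The probe's difference was small and did not pass the test in either fit, and KO means the label throughout.

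The array probes are shown first because the copies are so alike that a probe of one gene may bind RNA of another. All lay on chromosome 16 of the mm9 build within the stefin cluster and all were single spots of 60 bases. The Stfa1 probe was at chr16:36285398-36285457 on the plus strand and the Csta3 probe at chr16:36217755-36217814 on the plus strand. The Stfa2 probe was at chr16:36404032-36404089 and the Stfa3 probe at chr16:36450693-36450752, both on the minus strand. The Stfa2l1 probe ran from chr16:36160118 to chr16:36161876 on the plus strand, with an intron between its parts, and the file annotation gave it RefSeq transcripts of both Stfa2l1 and Stfa2. Each probe was compared, on its own strand and without gaps, with the 39428 other probes. Transcript sequences were not compared, so a match to a part of another copy that no probe covers would not be seen. Pairs of a member with another named gene of the cluster are given here where at least 30 bases overlapped and at least 65% of them were identical. Pairs with probes outside the cluster are left out.

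The Stfa2l1 probe and a probe for a transcript of Gm10092, another predicted gene of the cluster, shared 50 of 60 bases (83.3%), with an unbroken run of 26. The Csta3 probe overlapped the Stfa2l1 probe over 38 bases, of which 30 were identical (78.9%), and no shared run was longer than 9. With the Gm10092 probe it shared 26 of 38 bases (68.4%). In the next 3 lines, read 5′ to 3′, capitals in the Stfa2l1 and Gm10092 probes mark the 10 bases that differ between them. Capitals in the Csta3 probe mark the 8 bases of the overlap that differ from Stfa2l1.
Stfa2l1: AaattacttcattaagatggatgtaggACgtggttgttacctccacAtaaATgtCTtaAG
Gm10092: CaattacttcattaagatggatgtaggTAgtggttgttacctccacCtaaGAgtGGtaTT
Csta3: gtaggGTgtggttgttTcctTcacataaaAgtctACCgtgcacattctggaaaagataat

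The Stfa3 probe shared 30 of 35 overlapping bases with the probe of Cstdc4 (85.7%), 35 of 41 with that of Cstdc5 (85.4%) and 31 of 39 with that of a Cstdc3 transcript. The stretch of 22 bases without a difference between Stfa3 and Cstdc4 is in capitals in the next lines, with the first 58 bases of the Stfa3 probe.
Stfa3: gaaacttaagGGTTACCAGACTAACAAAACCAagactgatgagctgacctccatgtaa
Cstdc4: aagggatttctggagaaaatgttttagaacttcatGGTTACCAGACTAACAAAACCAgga

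The Stfa1 probe shared 27 of 37 overlapping bases with that of Csta2 (73.0%). The Stfa1 and Stfa2 probes both held the polyadenylation signal AATAAA and shared 40 of 58 bases (69.0%), with no run over 9. In the 30 bases around that signal, 5 bases differed, and these are in capitals.
Stfa1: tgGaaagagatTcAgccatGaataaagaaA
Stfa2: tgTaaagagatGcGgccatCaataaagaaG

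The pair with the most bases in common, Stfa2l1 and Gm10092, also had close ratios. The Gm10092 probe had PACAP over vehicle ratios of 0.750 and 0.895 in WT and 1.69 and 1.13 in KO, at 30 and 60 min, beside 0.769, 0.896, 1.89 and 1.28 for Stfa2l1. Csta3, with 8 differences in 38 bases, reached 17.4 where Stfa2l1 was at 1.89. Cstdc4 reached 4.38 where Stfa3, with which its probe shares the run of 22 bases, was at 1.46. How much of any probe's signal came from another copy was not tested.

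Csta3 encodes a stefin A protein of the cluster and had the highest mean ratio of the 5 genes in each of the 4 comparisons. In WT at 30 min it was the highest on 1 of the 2 arrays only. The levels that follow are log2 intensities after background correction, loess and between-array normalisation, each the mean of a sample's 2 arrays. In vehicle samples the Csta3 level was 6.45 and 6.70 in WT and 6.84 and 7.18 in KO, at 30 and 60 min. In PACAP samples it was 6.54, 8.44, 10.03 and 9.95 in the same order. The PACAP samples other than that of WT at 30 min were above all 4 vehicle samples, and the array values of WT at 30 min overlapped those of its own vehicle.

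The Csta3 ratios of PACAP over vehicle, from the scanner's dye-normalised signals and averaged over both arrays on the log scale, were 7.88 in WT at 60 min (10.7 and 5.79 on the 2 arrays), 17.4 in KO at 30 min (18.8 and 16.0) and 11.2 in KO at 60 min (14.8 and 8.44). For WT skin at 30 min the ratio was 1.30, but the arrays fell on opposite sides of 1, at 2.11 and 0.803, and the probe was well above background on 1 of 2 arrays in either sample. In KO at 30 min the processed signals behind the ratio were 1078 and 1151 for PACAP and 57.3 and 71.9 for vehicle. In WT at 60 min they were 249.7 and 239 for PACAP and 23.3 and 41.2 for vehicle. The vehicle signals were thus low, and the size of the ratio depended on the processing. With another background correction, an offset added before the log and another dye normalisation, changed together (normexp and loess), the Csta3 ratio was 3.33 in WT at 60 min, and in KO it was 9.11 and 6.81 at the earlier and later time.

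Stfa1 and Stfa2 encode further stefin A proteins, and their levels had the highest correlation of any member pair over the 8 RNA samples (r = 0.976, as a description). The Stfa1 level in vehicle samples was 11.89 and 11.42 in WT and 11.38 and 12.24 in KO, at 30 and 60 min. In PACAP samples it was 11.87, 11.65, 12.94 and 13.78. Both KO PACAP samples were above the other 6 samples, and the WT samples lay within the range of the KO vehicle samples.

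The Stfa1 ratio was 3.04 in KO at 30 min (2.95 and 3.13 on the 2 arrays) and 2.97 in KO at 60 min (2.84 and 3.10). The WT ratio was 0.987 at 30 min, where the arrays were at 0.902 and 1.08, and 1.12 at 60 min, where they were at 1.06 and 1.17. The KO ratios at 30 and 60 min overlapped between arrays. The KO minus WT difference of the Stfa1 vehicle levels was -0.51 at 30 min and 0.82 at 60 min on the log2 scale. Each of these sets 1 RNA sample against 1 other, so how far samples of a group vary is not known.

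The Stfa2 level in vehicle samples was 7.50 and 7.42 in WT and 7.31 and 7.72 in KO, at 30 and 60 min. In PACAP samples it was 7.42 and 7.54 in WT and 8.57 and 9.28 in KO. As for Stfa1, the highest samples were the KO PACAP samples, 60 min above 30 min, and next came the KO vehicle sample at 60 min. The Stfa2 ratio was 3.37 in KO at 30 min (3.60 and 3.15) and 3.74 in KO at 60 min (3.97 and 3.54). The WT ratio was 0.898 at 30 min (0.930 and 0.868) and 1.11 at 60 min (1.15 and 1.06).

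**Figure D1:**
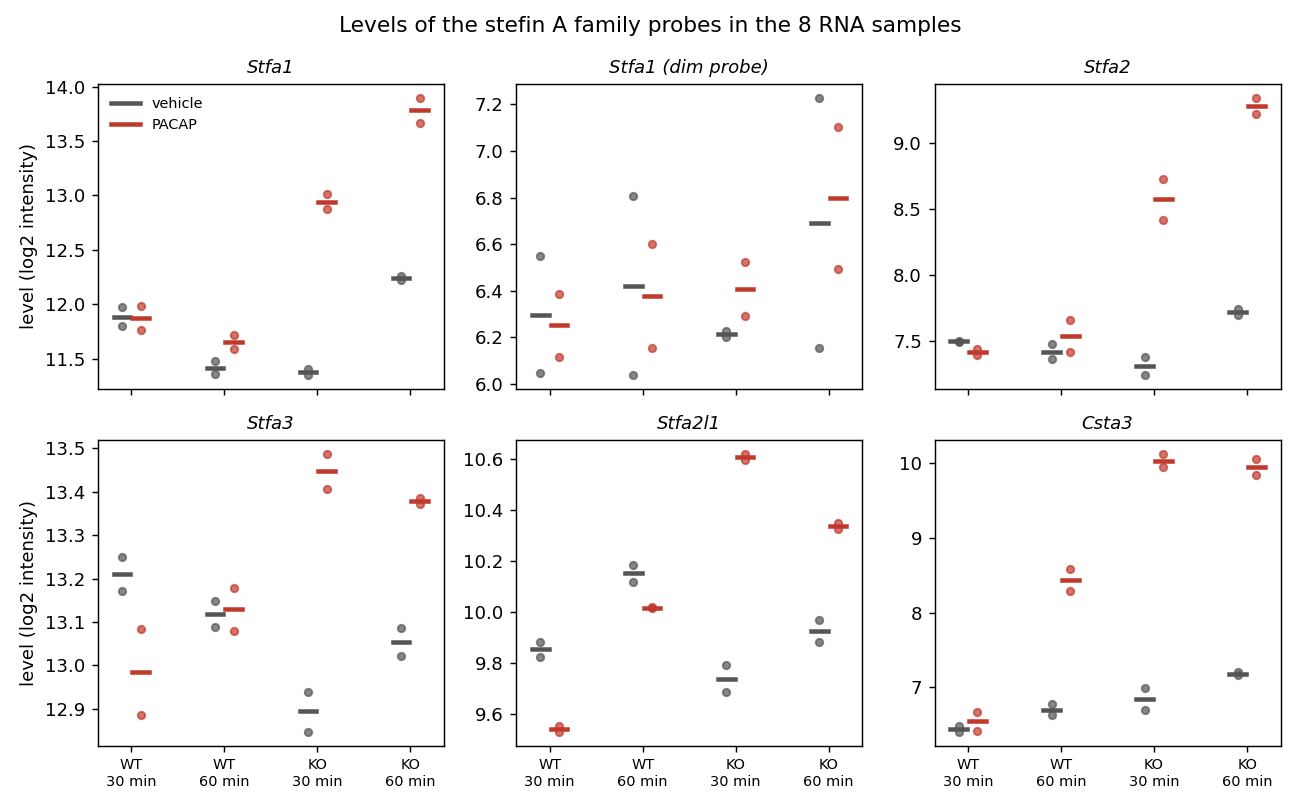
Levels of the 6 stefin A family probes (vertical axis, log2 intensity, its own range in each panel) in the vehicle and PACAP samples of each genotype and time; points are the 2 dye-swapped arrays and lines their mean. Csta3 was higher in the PACAP samples of WT at 60 min, KO at 30 min and KO at 60 min, from 8.44 to 10.03, than in all vehicle samples, from 6.45 to 7.18.

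Stfa3 and Stfa2l1 had smaller ratios. The Stfa3 level was 13.21 and 13.12 in the WT vehicle samples, 12.89 and 13.05 in the KO vehicle samples, 12.98 and 13.13 in the WT PACAP samples and 13.45 and 13.38 in the KO PACAP samples, at 30 and 60 min. All 8 samples lay within 0.6 on the log2 scale, with the KO PACAP samples highest. The Stfa3 ratio was 1.46 in KO at 30 min (1.51 and 1.41) and 1.27 in KO at 60 min, against 0.847 and 0.997 in WT.

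The Stfa2l1 level was 9.85 and 10.15 in the WT vehicle samples, 9.74 and 9.93 in the KO vehicle samples, 9.54 and 10.02 in the WT PACAP samples and 10.61 and 10.34 in the KO PACAP samples. Again the KO PACAP samples were highest, here with 30 min above 60 min. The Stfa2l1 ratio was 1.89 in KO at 30 min (1.82 and 1.96), 1.28 in KO at 60 min, 0.769 in WT at 30 min and 0.896 in WT at 60 min. In WT both arrays at both times were below 1.

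The second Stfa1 probe, at chr16:36280686-36280745, carried no RefSeq transcript in the file and followed the dye rather than the treatment. Its red signal was above its green signal on 7 of 8 arrays, with a log ratio of 0 on the other. Its green signal was well above background on 2 of 8 arrays. Its ratios were 0.621, 1.12, 0.930 and 2.33 in WT at 30 min, WT at 60 min, KO at 30 min and KO at 60 min. The last of these was the mean of 5.72 and 0.952, so this probe gave no direction for Stfa1.

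**Figure D2:**
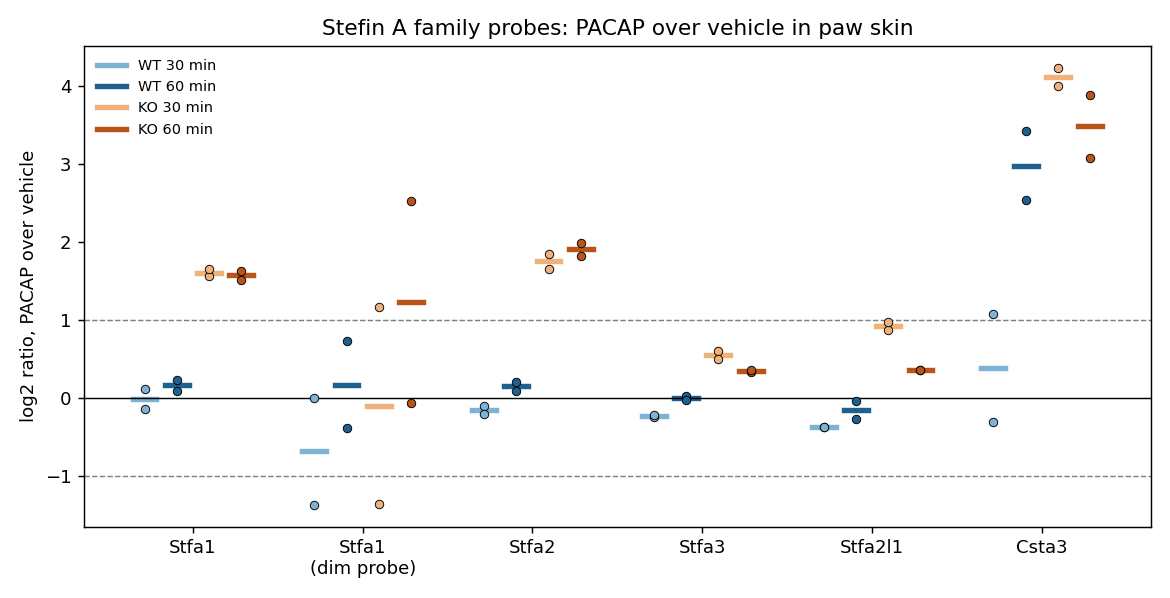
Log2 ratio of PACAP over vehicle (vertical axis) for the 6 probes in the 4 comparisons; points are the 2 dye-swapped arrays, bars their mean and dashed lines a 2.0-fold difference either way. Stfa1, Stfa2 and Csta3 were past the upper line on both arrays in KO at both times, Csta3 also in WT at 60 min, and the arrays of the dim Stfa1 probe lay far apart in all 4 comparisons.

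A probe was called where the mean ratio was at least 2.0 or at most 0.5 and both arrays had the same direction with a Feature Extraction p below 0.01, which measures error within 1 array and not between animals. In WT at 30 min, 0 of 6 member probes were called, beside 0.254% of all probes called upward and 0.0964% downward. In WT at 60 min, 1 was called upward (Csta3), beside 0.583% of all probes. In KO at 30 min, 3 were called upward (Stfa1, Stfa2 and Csta3), beside 0.601%. In KO at 60 min the same 3 probes were called upward, beside 0.142%. None was called downward, where 0.109%, 0.107% and 0.15% of all probes were called in WT at 60 min, KO at 30 min and KO at 60 min. Since the genes were chosen on these ratios, the counts describe the choice and nothing is read from them.

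The member values nearest the 2.0-fold limit were Stfa1 at 2.97 in KO at 60 min on the inside and Stfa2l1 at 1.89 in KO at 30 min on the outside. The dim Stfa1 probe in KO at 60 min had a mean past the limit and failed on its arrays. The median log2 ratio of the 6 probes was -0.20 and 0.15 in WT and 1.26 and 1.40 in KO, at 30 and 60 min, where that of all probes was 0 in each comparison.

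The contrasts between vehicle samples were not the ratios on which the genes were chosen. Vehicle levels do enter those ratios as denominators, so the tests below are not independent of the choice. In limma fits over 37551 probes, the KO minus WT difference of vehicle levels was 0.44 for Csta3 (SE 0.17; adjusted p = 0.782), 0.16 for Stfa1 (SE 0.37; adjusted p = 0.98) and 0.05 for Stfa2 (SE 0.16; adjusted p = 0.982), on the log2 scale. It was -0.19 for Stfa3 (SE 0.09; adjusted p = 0.814) and -0.17 for Stfa2l1 (SE 0.14; adjusted p = 0.919). Leaving out 1 vehicle sample at a time gave -0.11 (without KO at 30 min) to -0.27 (without KO at 60 min) for Stfa3 and -0.02 (without WT at 60 min) to -0.32 (without WT at 30 min) for Stfa2l1, and for Stfa1 and Stfa2 it turned the direction. Csta3 was higher in KO at both times, with an unadjusted p of 0.063 in limma, and did not pass the correction. With time as a covariate its unadjusted p was 0.0042 and its adjusted p 0.316. With the processed signals the Csta3 difference was 1.28 (limma adjusted p = 0.688), and leaving out 1 vehicle sample at a time gave 0.27 (without KO at 60 min) to 0.61 (without KO at 30 min). The fit called 0% of all probes at an adjusted p under 0.05, and 2424 probes had an unadjusted p under 0.05.

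The 60 minus 30 min difference of vehicle levels was above 0 for each member probe, from 0.03 for Stfa3 (SE 0.13; limma adjusted p = 0.926) to 0.30 for Csta3 (SE 0.23; adjusted p = 0.594) and 0.30 for the dim Stfa1 probe (SE 0.11; adjusted p = 0.319). It was 0.20 for Stfa1 (SE 0.35; adjusted p = 0.832), 0.16 for Stfa2 (SE 0.14; adjusted p = 0.619) and 0.24 for Stfa2l1 (SE 0.10; adjusted p = 0.364). With genotype as a covariate the SE was 0.05 for Csta3 (limma adjusted p = 0.151) and 0.06 for Stfa2l1 (limma adjusted p = 0.173). For the other member probes it was 0.09 to 0.39. The direction was not stable for Stfa3 and Stfa1, which turned below 0 when 1 of the KO vehicle samples was left out, to -0.12 for Stfa3 (without KO at 30 min) and -0.21 for Stfa1 (without KO at 60 min). In the same way Csta3 ranged from 0.06 (without KO at 60 min) to 0.54 (without WT at 60 min) and Stfa2 from 0.02 to 0.31 (without the same samples). The dim Stfa1 probe ranged from 0.17 (without KO at 60 min) to 0.44 (without WT at 60 min). Stfa2l1 ranged from 0.13 (without WT at 60 min) to 0.35 (without KO at 60 min). No member passed. The fit without a covariate, like that of KO minus WT, called 0% of probes, with 6293 at an unadjusted p under 0.05. With 4 samples these fits leave wide errors, and a missed threshold does not show equal levels.

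Upstream of the genes, the RefSeq promoter sequences of all 5 members (GRCm38.p6, another build than that of the probes) were searched over 250 bases before the annotated start. The longest unbroken runs that all 5 share were 2 runs of 13 bases, found after the sequences were seen. ACTCAGCATTTCC occurred in 9 of 32851 promoters (0.0274%), those of the 5 members and of Csta1, Cstdc3, Cstdc5 and Gm7260. ACCTTTAAAACCC occurred in 8 (0.0243%), those of the members and of Cstdc3, Cstdc4 and Gm7260. Both strands were searched.

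The first run and its surroundings follow with the run in capitals. The stretches are chr16:36276976-36277036 (plus strand) for Stfa1, chr16:36408476-36408536 (minus) for Stfa2, chr16:36455506-36455566 (minus) for Stfa3, chr16:36156634-36156694 (plus) for Stfa2l1 and chr16:36210184-36210244 (plus) for Csta3.
Stfa1: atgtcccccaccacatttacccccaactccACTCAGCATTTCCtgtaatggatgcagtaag
Stfa2: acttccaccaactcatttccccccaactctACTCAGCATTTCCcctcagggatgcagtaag
Stfa3: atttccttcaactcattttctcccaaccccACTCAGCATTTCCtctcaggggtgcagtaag
Stfa2l1: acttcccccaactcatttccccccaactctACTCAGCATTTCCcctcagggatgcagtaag
Csta3: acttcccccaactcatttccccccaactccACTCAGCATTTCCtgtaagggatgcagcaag

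The run just before the start is shown in the same way, at chr16:36277090-36277142 for Stfa1, chr16:36408368-36408420 for Stfa2, chr16:36455399-36455451 for Stfa3, chr16:36156750-36156802 for Stfa2l1 and chr16:36210298-36210350 for Csta3. It ended 20 bases before the annotated start in Stfa1, 19 in Stfa2, 21 in Stfa3 and 23 in Stfa2l1. In Csta3 it ended 67 bases before it.
Stfa1: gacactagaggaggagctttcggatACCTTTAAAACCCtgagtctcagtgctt
Stfa2: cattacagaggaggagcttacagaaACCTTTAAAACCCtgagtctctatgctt
Stfa3: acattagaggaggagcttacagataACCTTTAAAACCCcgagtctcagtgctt
Stfa2l1: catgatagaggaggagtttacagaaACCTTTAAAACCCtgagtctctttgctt
Csta3: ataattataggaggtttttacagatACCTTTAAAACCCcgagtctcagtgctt

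Motifs of known factors were searched in the same 250 bases on both strands. The cAMP response element (TGACGTCA, in 1.55% of all promoters), the AP-1 site (TGANTCA, in 6.75%), the NF-kappa-B site (in 1.21%) and TATAAA (in 12.4%) had no match in the windows of the 5 genes. The C/EBP motif TTGCNNAA (in 9.56%) matched in Csta3, 156 bases before the start, and in Stfa1, 109 bases before it. The PU.1 motif GAGGAA (in 23.3%) matched in Stfa1, Stfa2, Stfa3 and, at 2 places, Stfa2l1. Such a match is a match of letters only, and these windows do not cover more distant sequence.

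The other stefin and stefin-like genes were read for comparison, and 8 of 16 listed names were measured. They gave 0, 0, 1 and 2 calls upward in WT at 30 min, WT at 60 min, KO at 30 min and KO at 60 min, and 0 downward. Cstdc4 had a ratio of 4.38 in KO at 30 min and 2.33 in KO at 60 min, and was at 1.49 and 0.574 in WT. Cstdc6 was called in KO at 60 min at 2.00, and was at 2.56 in KO at 30 min with arrays at 4.19 and 1.56. With normexp and loess, tried after the values were seen, Cstdc4 was at 2.33 in KO at 30 min and 1.88 at 60 min and Cstdc6 at 1.18 at 60 min, so that 1 of these 3 calls stayed past 2.0-fold. Cstb, the stefin B gene, was at 0.935, 1.07, 1.32 and 0.981, and Csta2 at 0.793, 0.914, 1.47 and 1.08. In WT at 60 min Cstdc4 and Csta3 thus lay on opposite sides of 1.

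Secreted and plasma cystatins and fetuins (type 2 and 3), many of which inhibit cysteine proteases outside the cell, gave 0 calls among 14 genes in each comparison, with median ratios of 0.986, 1.01, 1.10 and 1.08. Cst3, the cystatin C gene, stayed between 0.923 and 1.02. The 10 cysteine cathepsins, of the enzyme class that stefins inhibit, and the protease legumain also gave 0 calls among 11 genes in each comparison, with medians of 1.04, 0.981, 1.00 and 1.02. Ctsb, for cathepsin B, had ratios of 1.19 and 1.38 in WT and 0.904 and 1.04 in KO, at 30 and 60 min. The dim Ctso probe was at 1.99 in WT and 0.579 in KO at 30 min. Ctsl, for the lysosomal cathepsin L, was between 0.933 and 1.02, Ctsh between 0.978 and 1.01, and Ctss, for a cathepsin of antigen-presenting cells, between 0.900 and 1.23.

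Stefin A is also a part of the cornified envelope, the protein shell of dead keratinocytes. The 13 cornified envelope and transglutaminase genes listed gave 0 calls in each comparison, with medians of 1.10, 1.04, 0.779 and 1.24. The list leaves out the Sprr2 genes of the envelope, of which Sprr2f was at 8.85 in WT at 60 min and at 10.3 and 15.1 in KO at 30 and 60 min. In KO at 30 min, where Csta3 was at 17.4, this list had its lowest median. The keratins of wounded epidermis (Krt6a, Krt6b, Krt16, Krt17) gave 0, 3, 2 and 4 calls upward among 4. Krt16 was at 2.30 in WT at 60 min, and at 2.23 and 5.38 in KO at 30 and 60 min.

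**Figure D3:**
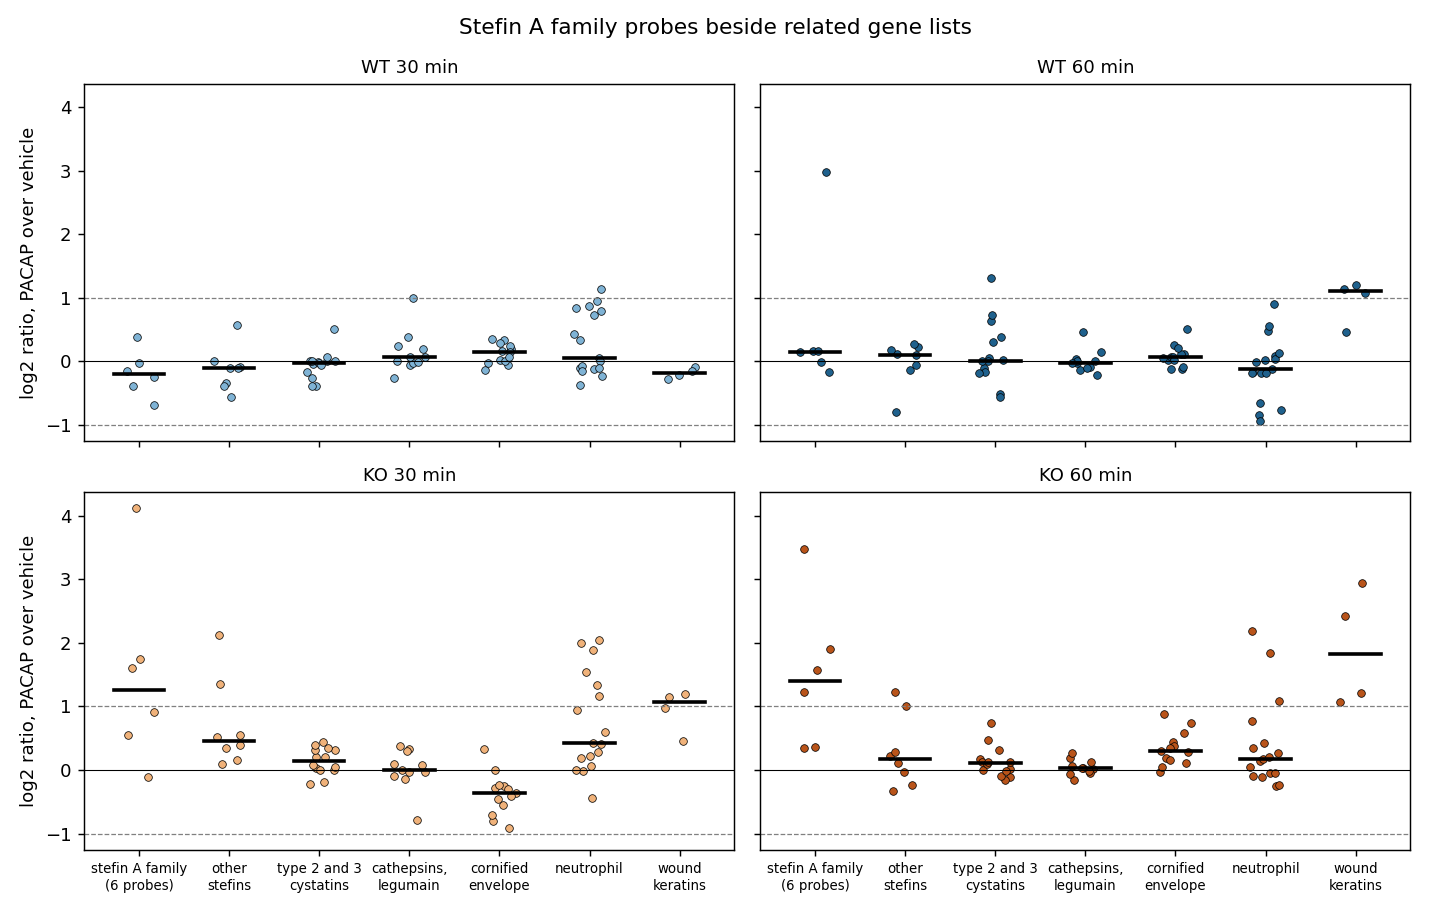
Log2 ratio of PACAP over vehicle (vertical axis) for the 6 stefin A family probes and the genes of 6 lists, 1 panel for each comparison; points are probes or genes, black lines medians and dashed lines a 2.0-fold difference. The cathepsin medians lay between 0.981 and 1.04 as ratios in all 4 panels, where the family median on the log2 scale went from -0.20 in WT at 30 min to 1.40 in KO at 60 min.

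Some neutrophil markers were high in KO. Of 17 neutrophil genes, 0, 0, 5 and 2 were called upward in WT at 30 min, WT at 60 min, KO at 30 min and KO at 60 min, and 0 downward. In KO at 30 min these were S100a8 (4.13), S100a9 (4.01), Mmp9 (3.70), Retnlg (2.91) and Fpr1 (2.53). With normexp and loess Mmp9 was at 1.26 and Fpr1 at 1.38, so that 3 of the 5 stayed past 2.0-fold. In KO at 60 min they were S100a8 (4.56) and S100a9 (3.57), which stressed keratinocytes also express. The list's median ratio was 1.04, 0.921, 1.34 and 1.13, and its summed level was 15716 to 22204 in the vehicle samples and 22763 to 47021 in the PACAP samples. In each comparison, in WT as in KO, most of the difference between the vehicle and PACAP sums lay in S100a8 and S100a9. Without them, a division made after the values were seen, the other 15 genes summed to 9010 to 9626 in the vehicle samples and 9097 to 11103 in the PACAP samples. Such a sum follows its brightest probe, here Csf3r, which was at 0.737 in KO at 30 min, where the median ratio of the 15 was 1.33; at 60 min that median was 1.10. All 17 probes were well above background in at least 7 of 8 samples, where a sample counted if either of its arrays passed. Even so, Ngp stayed at a level of 5.89 to 6.00, near that of Cst12, which was well above background in none. Ltf, Cd177, Mmp8, Mmp9, Mpo and Cxcr2 were dim as well, at levels of 6.01 to 6.54.

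Ly6g, the defining surface marker of mouse neutrophils, was at 1.92 in KO at 30 min and 0.924 in KO at 60 min, where Stfa1 was at 3.04 and 2.97. Retnlg was at 0.558 in WT at 60 min, where Csta3 was at 7.88, and at 1.13 in KO at 60 min, where Stfa2 was at 3.74. Neutrophil genes and members were thus called together in KO at both times, with S100a8 and S100a9 the neutrophil genes called at 60 min. Their part in the members' ratios was not tested, and in whole skin more cells of a type and more RNA per cell cannot be told apart.

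Of the markers of other cells, macrophage (6 genes), mast cell (5) and eccrine gland (5) lists gave 0 calls in each comparison. Those of epidermis (Krt5, Krt14, Krt1, Krt10 and Krt9) gave 2 downward calls among 5, both in KO at 30 min: Krt1 at 0.455 and Krt10 at 0.365. Skeletal muscle genes gave 1 upward call in WT at 30 min and 2 downward calls in KO at 30 min among 6. Hair genes gave 2, 5, 5 and 0 upward calls among 5. In the same order the members had 0, 1, 3 and 3 upward calls. Hair genes were thus high together with Csta3 in WT at 60 min, where Krt33a was at 9.56, and with the 3 called members in KO at 30 min, where it was at 4.62. In KO at 60 min the hair median was 0.726 where Csta3 was at 11.2, and the KO vehicle sample at 60 min had a summed hair level of 27720, against 2906 to 4722 in the other vehicle samples. The part of tissue composition was not tested.

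The genes whose levels were most like those of the members were sought among 400 probes that were well above background in at least 4 samples and had an SD of at least 0.5 over the 8 RNA samples. The mean level of the 5 genes was centred for each gene but not scaled. Csta3, with levels from 6.45 to 10.03, thus weighed more in it than Stfa3, from 12.89 to 13.45. With that mean, Pearson's r was 0.987 for Sprr2g, 0.985 for Slpi, 0.977 for Saa1, 0.958 for Nppb and 0.950 for Sprr2f. With Csta3 alone it was 0.990 for Sprr2f, 0.977 for Sprr2g, 0.970 for Saa1, 0.955 for Slpi and 0.951 for Lcn2. These are descriptions over 8 samples that share arrays in pairs and slides by genotype. Sprr2f and Sprr2g encode small proline-rich proteins of the cornified envelope, Slpi a secreted inhibitor of serine proteases, Saa1 an acute-phase protein, Nppb a natriuretic peptide and Lcn2 a protein that binds bacterial siderophores.

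The ratios of these genes differed in WT at 60 min. Sprr2f (8.85) and Sprr2g (4.33) were high there, as was Csta3 (7.88). Slpi (1.23), Nppb (1.31) and Lcn2 (1.16) were near 1, as were Stfa1 (1.12) and Stfa2 (1.11), and Saa1 (1.78) lay between. In KO at 60 min Sprr2g was at 8.57 and Slpi at 5.96, beside 11.2 for Csta3 and 3.74 for Stfa2. Among the members themselves, r over the 8 levels lay between 0.646 (Stfa1 with Stfa2l1) and 0.976 (Stfa1 with Stfa2).

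**Figure D4:**
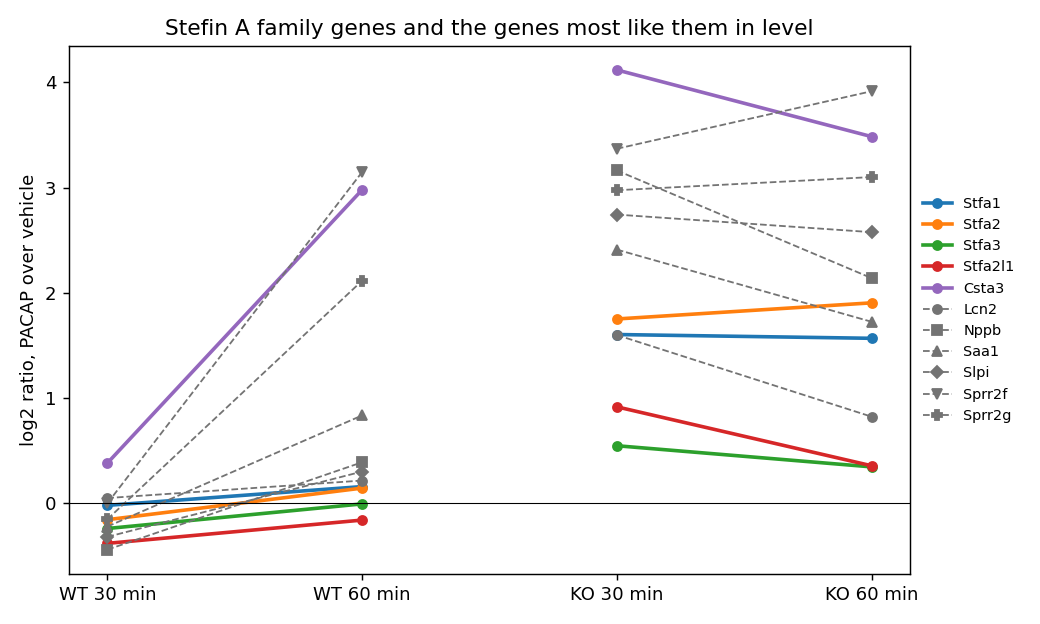
Log2 ratio of PACAP over vehicle (vertical axis) in the 4 comparisons for the 5 stefin A family genes (solid lines, brightest probe of each) and the 6 genes most like them in level (dashed grey); lines join the times of a genotype. Csta3, Sprr2f and Sprr2g were at 7.88, 8.85 and 4.33 as ratios in WT at 60 min, where Stfa1, Stfa2 and Slpi were at 1.12, 1.11 and 1.23.

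The order of the 8 levels was read against the difference between a sample's arrays, which covers technical error only. For Csta3, WT vehicle and PACAP at 30 min, WT vehicle at 60 min and KO vehicle at 30 min overlapped each with the next, and KO vehicle at 60 min, WT PACAP at 60 min and the pair of KO PACAP samples followed without overlap between them. The KO PACAP samples at 30 and 60 min overlapped each other. For Stfa1 the KO vehicle sample at 60 min (12.24), the KO PACAP sample at 30 min (12.94) and that at 60 min (13.78) did not overlap with each other or with the lower samples. Stfa2 had the same 3 samples at the top, at 7.72, 8.57 and 9.28, also without overlap. For Stfa3 the lower 6 samples, from 12.89 to 13.21, overlapped with a neighbour and both KO PACAP samples stood above them. For Stfa2l1 no neighbours overlapped, over a whole range of 9.54 to 10.61.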

How the data were processed

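RNA of paw skin was measured on 8 two-colour 44K mouse arrays. The deposited intensity columns and the log10 ratios with their p-values were made by the authors with Agilent Feature Extraction (12.0.3.1 per the file headers, 11.0.1.1 in the submitters' processing notes), with its background subtraction and LOWESS dye normalisation; the authors' series table of ratios was an alternative. No intensity has a counting error, and the number of arrays limits the precision. Control spots and outlier flags were left out, ratios were turned to PACAP over vehicle through the dye labels and averaged over spots and arrays, and 43020 spots gave 39429 probes. Levels came from limma 3.58.1 (R 4.3.3: normexp with offset 50, loess, Aquantile), and vehicle levels were tested with lmFit and eBayes with Benjamini-Hochberg adjustment over all probes tested. Scripts were tested on simulated data. Members and lists were chosen with earlier results of these data known. Named genes were all members, list genes past the thresholds (at most 6 a list) or defining it, and the 5 most alike in level. Alternatives were other normalisations, thresholds and filters and leaving out each array or vehicle sample.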

Additional observations from a re-analysis of the deposited data

Results flagged for a closer look

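For 3 genes the direction of PACAP over vehicle was opposite on both arrays of one group and both arrays of another. These differences were not tested, since each comparison had 1 replicate, and the genes were chosen on these ratios. The Stfa2 log2 ratio was 1.91 higher in KO than in WT at 30 min and 0.30 higher in WT at 60 min than in WT at 30 min. The Stfa3 log2 ratio was 0.79 higher in KO than in WT at 30 min. The Stfa2l1 log2 ratio was 1.30 higher in KO than in WT at 30 min and 0.52 higher in KO than in WT at 60 min.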

How the results depend on the processing

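No paired analysis was possible because replicates 1 and 2 of each group were the dye-swapped arrays of the same RNA pair, averaged into 1 value. Counts of member probes called kept within 1.5 times under every alternative but one: in WT at 30 min, leaving out 1 array in turn gave 0 to 1 probes called downward, against 0, the 1 being the dim Stfa1 probe. Over 6 alternatives each, called ratios ranged from 3.33 to 10.7 (Csta3, WT at 60 min), 9.11 to 18.8 (Csta3, KO at 30 min), 6.81 to 14.8 (Csta3, KO at 60 min), 2.95 to 3.13 and 2.84 to 3.10 (Stfa1, KO at 30 and 60 min) and 2.40 to 3.60 and 2.95 to 3.97 (Stfa2, likewise); the lowest Csta3 and Stfa2 values came with normexp and loess. No vehicle difference of a member passed the threshold under any alternative. The log2 differences KO minus WT that turned below 0 were, with processed signals, -0.19 (dim Stfa1 probe), -0.18 (Stfa2) and -0.0619 (Stfa1); without the KO vehicle sample at 60 min, -0.14 (dim Stfa1 probe), -0.15 (Stfa2) and -0.28 (Stfa1); and without the WT one at 60 min, -0.0772 (Stfa1). Of 60 minus 30 min, Stfa3 turned to -0.0784 with processed signals and -0.12 without the KO vehicle sample at 30 min, and Stfa1 to -0.0570 without that sample and -0.21 without the KO one at 60 min; the cause was not tested. With processed signals, 124 of 37551 probes passed for 60 minus 30 min, against 0, and none was a member. Dim signals limit the Csta3 vehicle level and the second Stfa1 probe.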
